A study of Mus musculus with 14 samples.

Results

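A set of 10 genes of the Wnt pathway were followed through endoderm differentiation of mouse embryonic stem cells with and without the transcription factor Foxa2. The ligand genes were Wnt3, Wnt5a, Wnt5b, Wnt8a and Wnt11 and the receptor genes were Fzd2, Fzd5, Fzd7, Fzd8 and Fzd10. They were chosen by name, 10 of the 24054 genes in each table, and all 10 were found in all 14 libraries. The files hold 14 other Wnt ligand genes and 5 other Frizzled genes.

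Wnt ligands are secreted lipid-modified proteins that bind Frizzled receptors on the cell surface. With the co-receptors Lrp5 and Lrp6 this stabilizes beta-catenin, which acts with Tcf/Lef factors on target genes, and with co-receptors such as Ror2 it acts through planar cell polarity proteins on cell shape and movement. In the gastrulating mouse embryo Wnt3 is required to form the primitive streak, from which mesoderm and definitive endoderm arise, and cells of the anterior endoderm secrete Wnt antagonists.

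RNA was sequenced from low-input libraries of sorted cells. The groups d0con and d0ko (n = 2 each) were embryonic stem cells at day 0, kept on red-fluorescent fibroblast feeders without LIF and sorted as Cherry-negative. The groups d3con and d3ko (n = 3 each) were sorted as Venus-positive after 3 days on feeder cells that make Wnt3a, in medium with 12 ng/ml Activin A. Per the study's methods, the first medium also contained Wnt3a-conditioned medium and was replaced the next day. Control cells (con) were Foxa2-Venus-KO/+ and knockout cells (ko) were Foxa2-Venus-KO/Foxa2-Venus-KO, where the Venus allele has H2B-Venus in place of the Foxa2 coding region. Both genotypes therefore carry at least 1 such allele, and the controls have 1 intact copy of Foxa2. The groups d2-FVFn and d2-FVFp (n = 2 each) came from T119, a single embryonic stem cell line with the lentiviral transgene TetON-Foxa2-Venus. They were grown without feeders in LIF and serum with 40 ng/ml doxycycline for 48 h and sorted as Venus-negative or Venus-positive, so the comparison is of sorted fractions of treated cells. Library 2 of each knock-in group came from another clone than libraries 1 and 3, and the sources do not say whether libraries of a group were separate cultures, so p-values measure only the spread between these libraries.

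The depth per library was 14142800 to 27278200 expected counts. Foxa2 was at 34.8 to 58.6 TPM in d3con and 0.11 to 0.19 TPM in d3ko, and at 2.01 to 2.99 TPM in d2-FVFn and 160 to 169 TPM in d2-FVFp, where TPM is a transcript abundance scaled to gene length and to the library total, so that levels of different genes can be compared. The labelled cell types were checked with lists of marker genes. The 6 endoderm markers summed to 758 to 941 TPM in d3con and 30.5 to 161 TPM in d3ko, with 6 of 6 above 1 TPM in d3con and 4 or 5 in d3ko, whereas the 6 pluripotency markers summed to 118 to 587 TPM in d3con and 812 to 1910 TPM in d3ko. The label endoderm cells was thus met by the endoderm markers in d3con and only in part in d3ko. The 6 primitive streak markers were also above 1 TPM in all libraries of both groups. They summed to 505 to 633 TPM in d3con and 136 to 698 TPM in d3ko. Both d3con library 2 and d3ko library 2 stood apart from libraries 1 and 3 of their groups in the primitive streak gene T, at 131 and 212 TPM against 11.4 and 15.5 TPM in the other d3con libraries and 13.7 and 55.7 TPM in the other d3ko libraries. By their effective gene lengths, d3con library 1 and d3ko library 1 held reads of 75 bases and every other library reads of 50 bases.

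Promoter sequences are shown for the genes that passed the test in at least 1 comparison below and are in the RefSeq promoter table (GRCm38.p6). These are Wnt3, Wnt11, Fzd5 and Fzd7, each with the 250 bases before a listed transcription start, 5′ to 3′ on the strand of the gene. The windows are chr11:103773925-103774174 (plus strand) for Wnt3, chr7:98834862-98835111 (plus strand) for the first of 2 listed starts of Wnt11, chr1:64737751-64738000 (minus strand) for Fzd5 and chr1:59481897-59482146 (plus strand) for Fzd7. Capitals mark a Tcf/Lef motif.
Wnt3: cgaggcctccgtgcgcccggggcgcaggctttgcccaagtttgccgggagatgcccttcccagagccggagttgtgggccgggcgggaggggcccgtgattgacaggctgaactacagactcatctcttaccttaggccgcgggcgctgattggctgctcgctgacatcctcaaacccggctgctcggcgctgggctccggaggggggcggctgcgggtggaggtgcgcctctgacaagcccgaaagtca
Wnt11: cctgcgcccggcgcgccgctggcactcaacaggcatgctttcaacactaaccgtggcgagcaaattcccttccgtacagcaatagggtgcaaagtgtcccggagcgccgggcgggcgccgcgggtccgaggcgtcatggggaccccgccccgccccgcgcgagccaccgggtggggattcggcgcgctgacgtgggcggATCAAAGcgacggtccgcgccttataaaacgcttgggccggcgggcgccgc
Fzd5: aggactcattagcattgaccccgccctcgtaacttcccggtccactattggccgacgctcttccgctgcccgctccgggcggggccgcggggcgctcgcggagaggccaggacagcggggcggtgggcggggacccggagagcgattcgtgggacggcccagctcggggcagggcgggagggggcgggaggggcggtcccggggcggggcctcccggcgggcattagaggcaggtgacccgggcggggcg
Fzd7: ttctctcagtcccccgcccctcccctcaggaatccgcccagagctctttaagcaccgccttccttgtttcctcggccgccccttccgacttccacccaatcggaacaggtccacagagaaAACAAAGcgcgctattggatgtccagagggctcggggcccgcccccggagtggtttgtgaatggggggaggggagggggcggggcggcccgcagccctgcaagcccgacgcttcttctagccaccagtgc

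The Tcf/Lef motif was searched on both strands as CTTTG followed by AA, AT, TA or TT. Counted back from the start, it was found as ATCAAAG at positions -51 to -45 of Wnt11 and as AACAAAG at positions -130 to -124 of Fzd7. Of the other members in the table, Wnt5b held CTTTGAT at positions -71 to -65 of 1 of its 3 listed starts and Fzd10 held none. At least 1 such match is present in 14.8% of the 32851 promoter windows of this length. Matches were found in 3 of 6 members, counted by gene over all listed starts, so this count is not like the share per window. Wnt5b has 3 listed starts and Wnt11 has 2, of which the second held no match. The matches are given as a description. The letters of a forkhead motif (TGTTTAC, or in a variant form TATTTAC, in 5.76% of windows) and of a T-box motif (TCACACC, in 3.33%) were not in the windows of the 6 members. The G and C content of the shown windows was 68% for Wnt3, 70.8% for Wnt11, 76.4% for Fzd5 and 65.2% for Fzd7, against a median of 52.4% over all windows.

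The comparison of d3con with d0con asks which of the ligands and receptors changed as control cells differentiated. The ligands Wnt3 and Wnt11 and the receptors Fzd2, Fzd7 and Fzd8 rose. This is 5 of 10 members, where 35.2% of all 13899 tested genes changed and 20.6% rose. No member fell past the threshold, where 14.6% of all genes did. The threshold was an edgeR adjusted p under 0.05 together with a change of more than 1 on the log2 scale. The median log2 fold change of the members was 1.94, and 0.07 over all genes tested.

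Wnt3 (chromosome 11, 103774175 to 103818021, GRCm38, protein-coding, as are all members) was at 0.5 and 1.03 TPM in d0con and at 22.7, 37.8 and 30.8 TPM in d3con. All d3con libraries were above both d0con libraries, as in 45.5% of all genes tested, and the log2 fold change was 5.10 (SE 0.78, adjusted p = 0.000979). In knockout cells Wnt3 was at 1.33 and 1.24 TPM in d0ko and at 22.9, 47.0 and 7.53 TPM in d3ko. It rose there as well (log2 fold change 4.15, SE 0.72, adjusted p = 0.00436). Library 3 of d3ko was the lowest of the 6 day 3 libraries but still above every day 0 library. At day 3 the genotypes overlapped, with a log2 fold change of d3ko over d3con of -0.24 (SE 0.52, adjusted p = 0.804).

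Wnt11, a ligand known for its part in cell movements at gastrulation (chromosome 7, 98835084 to 98854747), rose steeply in control cells. It went from 0.7 TPM in both d0con libraries to 39.6, 18.2 and 43.3 TPM in d3con (log2 fold change 5.40, SE 0.44, adjusted p = 0.000148). In knockout cells it reached only 3.16, 2.69 and 2.82 TPM in d3ko, from 0.58 and 0.6 TPM in d0ko, which was also a rise (log2 fold change 2.16, SE 0.39, adjusted p = 0.00521). The d3ko libraries were close to each other and all lay below the lowest d3con library. At day 3 Wnt11 was lower in d3ko than in d3con (log2 fold change -3.56, SE 0.33, adjusted p = 0.00297), and ranges that lay apart in this direction were found for 12.3% of all genes tested. Measured between libraries of the same number, the difference in log2 CPM was -3.71, -2.74 and -3.84, though the numbers were not taken to pair the libraries. These are bulk samples, in which fewer cells that make a transcript and less of it per cell cannot be told apart.

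**Figure D1:**
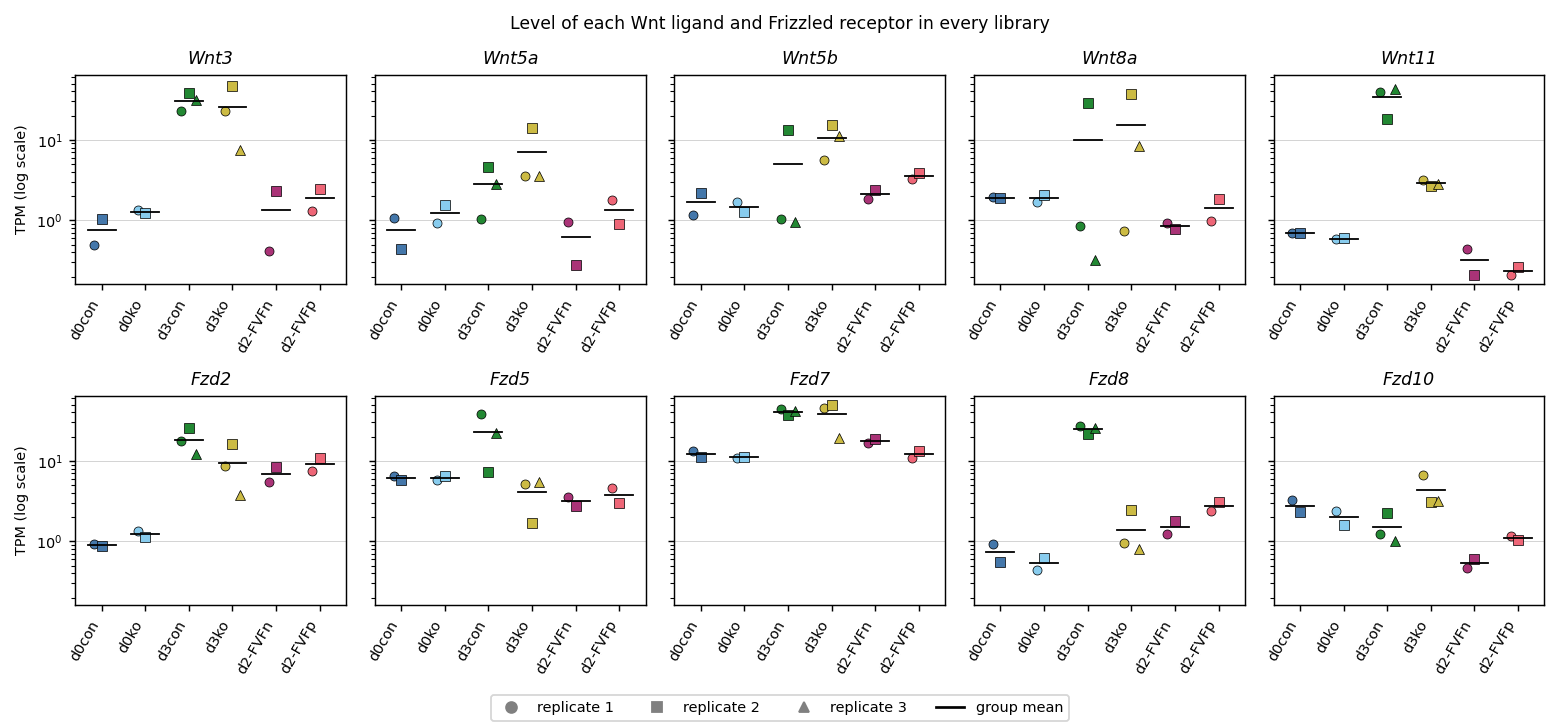
The level of each of the 10 genes in every library, in TPM on a log axis, by group. Points are libraries with their replicate number and lines are group means. Wnt11 at 18.2 to 43.3 TPM and Fzd8 at 21.8 to 27.5 TPM in d3con stand above all other groups, while Wnt8a differs between d3con libraries from 0.32 to 29.0 TPM.

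Wnt5a, a ligand that acts largely through Ror2 and planar cell polarity (chromosome 14, 28504543 to 28527448), was at 1.06 and 0.44 TPM in d0con, 1.04, 4.58 and 2.84 TPM in d3con, 0.92 and 1.56 TPM in d0ko and 3.6, 13.9 and 3.53 TPM in d3ko. It passed the test in knockout cells (d3ko against d0ko, log2 fold change 2.44, SE 0.81, adjusted p = 0.0479) and not in control cells (1.72, SE 0.80, adjusted p = 0.0975). The difference between these changes was itself not past the threshold (log2 interaction 0.72, SE 1.07, adjusted p = 0.833). Library 2 was the highest of each day 3 group. The call in knockout cells was lost in 7 of 17 alternative fits, namely without d3ko replicate 2, without d0ko replicate 1 or replicate 2, without both day 3 libraries numbered 2, with limma, with glmTreat and with the 2 groups fitted alone. The log2 fold change in knockout cells was 1.47 to 2.87 over all 17. In control cells the rise was called in 1 of 17 alternative fits, with DESeq2 (adjusted p = 0.0448).

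Wnt5b and Wnt8a differed widely between libraries of a group at day 3. Wnt5b, the close relative of Wnt5a (chromosome 6, 119432531 to 119544824), was at 1.17 and 2.18 TPM in d0con and at 1.05, 13.2 and 0.95 TPM in d3con, against 1.67 and 1.27 TPM in d0ko and 5.56, 15.3 and 11.1 TPM in d3ko. Wnt8a, a ligand of the primitive streak (chromosome 18, 34542327 to 34548061), was at 1.92 and 1.89 TPM in d0con and at 0.86, 29.0 and 0.32 TPM in d3con, against 1.7 and 2.05 TPM in d0ko and 0.74, 37.3 and 8.35 TPM in d3ko. For both ligands library 2 was the highest in each genotype, and these are the libraries in which T was highest, so clone, culture and cell state cannot be told apart here. Neither gene passed the edgeR test in any comparison. For Wnt5b all d3ko libraries were above both d0ko libraries (log2 fold change 2.69, SE 1.12, adjusted p = 0.0975), and this change was called in 4 of 17 alternative fits, with DESeq2, with the clone as a term, with the 2 groups alone and without both day 3 libraries numbered 2. Without d3con replicate 2 the change from d0con to d3con turned from 1.36 to -0.91 for Wnt5b and from 2.16 to -1.86 for Wnt8a on the log2 scale, neither of them past the threshold, and the difference of d3ko from d3con in Wnt5b became 3.36 from 1.08 on that scale and passed the test.

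Among the receptors, Fzd7 was the most abundant in every one of the 14 libraries. Fzd7 (chromosome 1, 59482147 to 59486955), a receptor long known in pluripotent cells, was at 13.3 and 11.2 TPM in d0con and 44.0, 37.1 and 41.1 TPM in d3con. It rose in control cells (log2 fold change 1.54, SE 0.35, adjusted p = 0.00629) and in knockout cells (1.61, SE 0.35, adjusted p = 0.0108), from 11 and 11.2 TPM in d0ko to 45.3, 49.2 and 19.2 TPM in d3ko. The day 3 groups overlapped, with a log2 fold change of d3ko over d3con of -0.11 (SE 0.30, adjusted p = 0.844). The rise in control cells was no longer called without d0con replicate 2.

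Fzd2, of the same Frizzled subgroup as Fzd7 (chromosome 11, 102604431 to 102608058), was at 0.93 and 0.88 TPM in d0con and at 17.7, 25.4 and 12.2 TPM in d3con. It rose in control cells (log2 fold change 4.14, SE 0.63, adjusted p = 0.000981). In knockout cells it rose from 1.35 and 1.15 TPM to 8.56, 16.2 and 3.81 TPM (log2 fold change 2.74, SE 0.58, adjusted p = 0.00934). Between day 3 libraries of the same number it was lower in the knockout library each time, though the numbers were not taken to pair the libraries. The ranges overlapped and the comparison did not pass the test (log2 fold change of d3ko over d3con -0.97, SE 0.46, adjusted p = 0.205). Without d3ko replicate 2 it was called lower.

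Fzd8 was lower in d3ko than in d3con. This receptor, a close relative of Fzd5 (chromosome 18, 9212856 to 9216201), was at 0.94 and 0.55 TPM in d0con and at 27.5, 21.8 and 26.0 TPM in d3con, and rose (log2 fold change 4.87, SE 0.55, adjusted p = 0.000318). In knockout cells it was at 0.44 and 0.63 TPM in d0ko and 0.95, 2.42 and 0.8 TPM in d3ko, which did not pass the test (1.19, SE 0.49, adjusted p = 0.0946). The lowest d3con library was far above the highest d3ko library, and the log2 fold change of d3ko over d3con was -4.20 (SE 0.44, adjusted p = 0.00438).

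Fzd5 (chromosome 1, 64730558 to 64737750) was at 6.48 and 5.76 TPM in d0con and 5.77 and 6.58 TPM in d0ko, so unlike Fzd8 it was present before differentiation. At day 3 it was at 38.7, 7.27 and 22.2 TPM in d3con and 5.16, 1.71 and 5.48 TPM in d3ko. Library 2 was the lowest of each genotype, opposite to Wnt5b and Wnt8a. Fzd5 was lower in d3ko than in d3con (log2 fold change -2.50, SE 0.61, adjusted p = 0.0331). Neither genotype's change from day 0 passed the test, with log2 fold changes of 1.72 in control cells (SE 0.69, adjusted p = 0.0602) and -0.74 in knockout cells (SE 0.64, adjusted p = 0.404). The day 3 call was lost in 8 of 17 alternative fits, among them those without replicate 1 or replicate 3 of d3con or of d3ko, with log2 fold changes from -2.93 to -1.81 over all 17. The change from d0con to d3con was called higher with DESeq2 and with no filter on low counts, both with all libraries. It was also called without d3con replicate 2 and without both day 3 libraries numbered 2.

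Fzd10 (chromosome 5, 128601106 to 128604093) had the opposite order of levels. It was at 3.24 and 2.31 TPM in d0con and at 1.22, 2.28 and 1.02 TPM in d3con, against 2.36 and 1.61 TPM in d0ko and 6.62, 3.1 and 3.17 TPM in d3ko. All d3ko libraries were above all d3con libraries, as were those of 11.5% of all genes tested, and the log2 fold change was 1.52 (SE 0.45, adjusted p = 0.0633), short of the threshold. Its changes from day 0 were not called in either genotype, with log2 fold changes of -1.09 in control cells (SE 0.49, adjusted p = 0.0894) and 0.95 in knockout cells (SE 0.51, adjusted p = 0.181). The day 3 difference was called higher with DESeq2, which kept all libraries. It was also called without d3con replicate 2, without d3ko replicate 2 and without both day 3 libraries numbered 2. Without d3con replicate 2 the change in control cells was called lower.

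**Figure D2:**
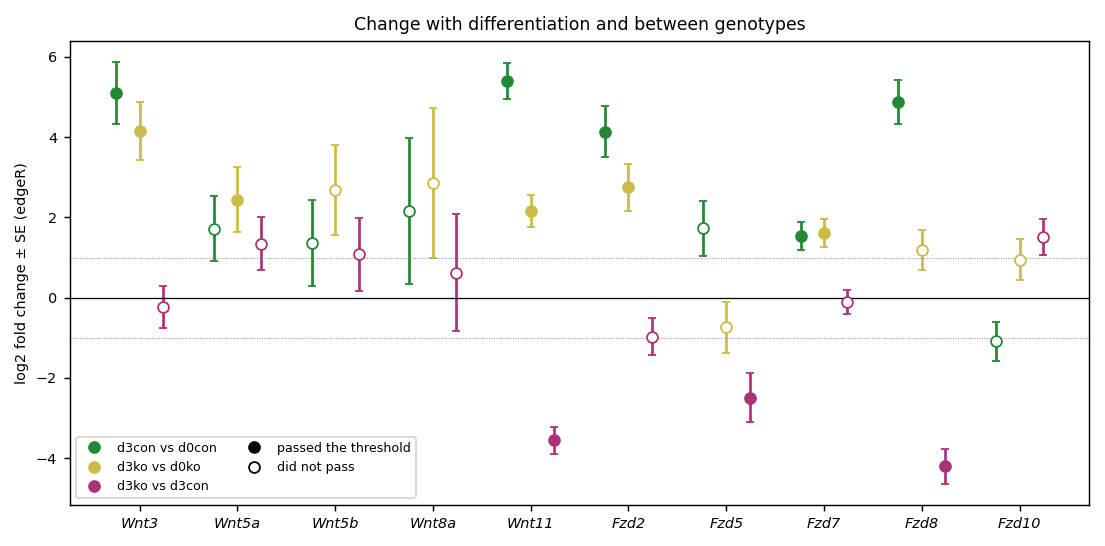
Log2 fold change of each gene with its standard error, for d3con against d0con, d3ko against d0ko and d3ko against d3con. Filled points passed the threshold and open points did not, and dotted lines mark log2 fold changes of -1 and 1. Wnt11 (-3.56), Fzd5 (-2.50) and Fzd8 (-4.20) were lower in d3ko, whereas Wnt3 (-0.24) and Fzd7 (-0.11) were near 0.

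Counted over the members, the comparison of d3ko with d0ko called 5 of 10 higher and none lower (Wnt3, Wnt5a, Wnt11, Fzd2 and Fzd7), where 17.3% of all genes changed, 11.6% rising and 5.72% falling. Only 2 libraries stand for d0ko. When either was left out, most of these calls were lost, and fewer of all genes were called as well. Over the fits without 1 library of d3ko or d0ko, the log2 fold change was 3.41 to 4.58 for Wnt3 and 1.47 to 2.87 for Wnt5a. It was 2.09 to 2.22 for Wnt11, 2.15 to 3.12 for Fzd2 and 1.4 to 1.93 for Fzd7. The comparison of d3ko with d3con, which asks what cells with an active Foxa2 locus lack without the protein, called 3 of 10 lower (Wnt11, Fzd5 and Fzd8) and none higher. Of all genes 8.26% changed, with 3.51% lower and 4.75% higher. The comparisons share the d3con and d3ko libraries and are not independent.

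Several libraries decided how many members were called between the day 3 genotypes. Without d3con replicate 2 there were 5 (2 higher, 3 lower), where 9.33% of all genes were called. Without d3ko replicate 2 there were 5 (1 higher, 4 lower), where 16.3% of all genes were called. Without both there were 6 of 10 (Wnt5b and Fzd10 higher, Wnt11, Fzd2, Fzd5 and Fzd8 lower), where 18.8% of all genes were called. When both 75-base libraries were left out, or libraries 1 and 3 of each genotype were summed as 1, none of the members was called, and of all genes only 1 was. In those fits the log2 fold change was -3.46 and -3.44 for Wnt11, -3.90 and -3.95 for Fzd8, and -2.02 and -2.43 for Fzd5, with adjusted p-values between 0.0750 and 0.198.

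Before differentiation the genotypes were compared in d0ko and d0con. None of the 10 members was called by edgeR, and none at an unadjusted p under 0.05, where 0% of all genes were called and 1.4% had an unadjusted p under 0.05. The log2 fold changes ranged from -0.52 for Fzd10 and Fzd8 to 0.71 for Wnt3. DESeq2 and limma called none of the members either.

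The interaction of genotype and day asks whether the change from day 0 to day 3 differed between genotypes. No member was called by edgeR, where 0% of all genes were, and 13.2% of genes had an unadjusted p under 0.05. The members with such an unadjusted p were Wnt11 (log2 interaction -3.24, SE 0.54, adjusted p = 0.121), Fzd8 (-3.68, SE 0.68, adjusted p = 0.129), Fzd5 (-2.47, SE 0.93, adjusted p = 0.3003) and Fzd10 (2.04, SE 0.71, adjusted p = 0.267). DESeq2 called Wnt11 and Fzd8, and limma on TPM called Fzd8, where 4.07% and 0.0578% of all genes were called. Without d3ko replicate 2 Wnt11 and Fzd8 were called, where 8.1% of all genes were. Without d3con replicate 2 Wnt11 was called, where 0.926% of all genes were.

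The makeup of the whole receptor family was described by shares. The 10 Frizzled genes summed to 26.2 to 30.4 TPM in d0con, 25.1 to 25.7 TPM in d0ko, 112 to 147 TPM in d3con and 39.8 to 86.4 TPM in d3ko. Fzd8 made up 18.7% to 21.2% of this sum in d3con and 1.2% to 2.8% in d3ko. Fzd7 made up 29.9% to 33.6% in d3con and 48.2% to 57.5% in d3ko, against 42.7% to 44.7% in the day 0 libraries. The genes in the lead behind Fzd7 were Fzd5 at day 0, Fzd5, Fzd2 or Fzd8 in d3con, and Fzd2 or Fzd5 in d3ko. These shares follow from the levels above and were not tested on their own.

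**Figure D3:**
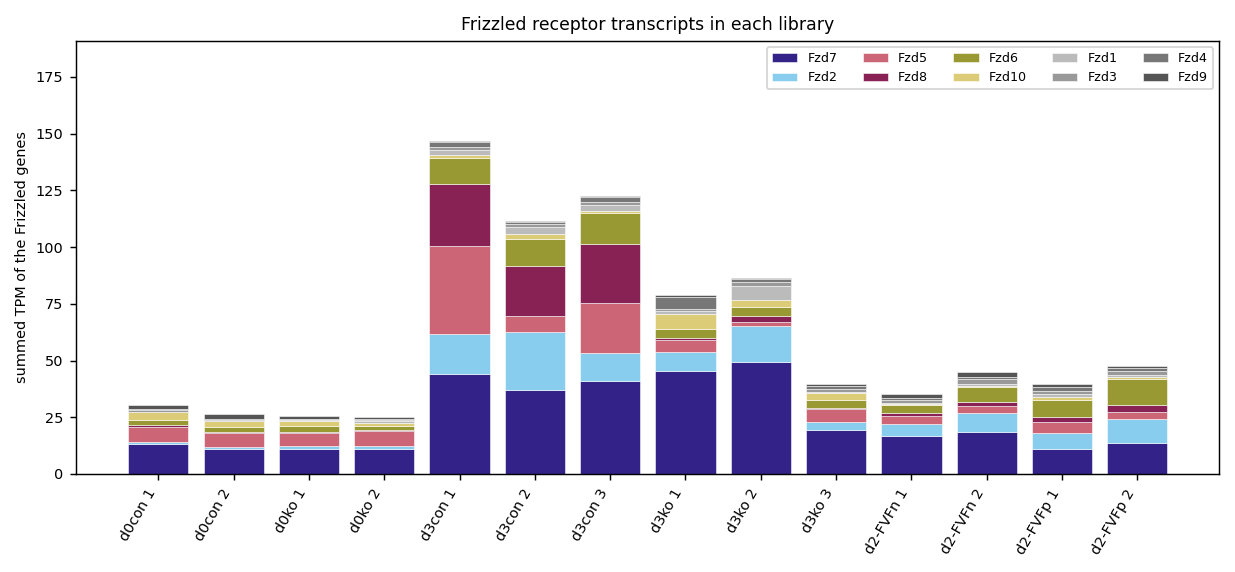
Summed TPM of the 10 Frizzled genes in each library, stacked by gene from a zero baseline. The d3con libraries reach 112 to 147 TPM with a wide Fzd8 band, and the d3ko libraries reach 39.8 to 86.4 TPM with more than 48% of it from Fzd7.

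Of the 19 Wnt ligand genes, the most abundant changed between the days. Wnt7b led in all 4 day 0 libraries, at 7.47 to 21.5 TPM, and was lower at day 3 in both genotypes (log2 fold change -3.85 in control cells, SE 0.75, adjusted p = 0.00293, and -6.26 in knockout cells, SE 0.86, adjusted p = 0.00184). In d3con Wnt11 led in libraries 1 and 3 and Wnt3 in library 2. In d3ko Wnt2, Wnt3 and Wnt3a each led in 1 library. The ligand genes summed to 106 to 113 TPM in d3con and 66.5 to 142 TPM in d3ko.

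Wnt3a is the ligand that the day 3 feeder cells and the conditioned medium of the first day supply, and its transcript varied between libraries. It was at 18.1, 3.52 and 5.81 TPM in d3con and 18.4, 7.11 and 27.0 TPM in d3ko, against 1.17 to 3.78 TPM at day 0 and at most 0.21 TPM in the doxycycline libraries. The 10 fibroblast markers, listed for the feeder cells, summed to 523, 71.1 and 267 TPM in d3con and 451, 156 and 476 TPM in d3ko, with 5 to 9 of 10 above 1 TPM and none at 0. Their sum at day 0 was 21.6 to 22.4 TPM in d0con and 46.6 to 159 TPM in d0ko. Of the 10, 4 or 5 were above 1 TPM in d0con and 6 to 9 in d0ko, with 2 at 0 in d0con library 2. The sum was 4.7 to 7.2 TPM in the doxycycline libraries, where up to 3 were at 0. In both genotypes library 2 was lowest in Wnt3a and in fibroblast markers. Of 9 tested fibroblast markers 5 rose in d3con against d0con, where 20.6% of all genes rose. In d3ko against d0ko 1 rose, where 11.6% of all genes did. In d3ko against d3con 0 were called, where 8.26% of all genes were. In d0ko against d0con 0 were called, where 0% of all genes were. Their median log2 fold change there was 2.47, and 0.02 over all genes. The part of the fibroblast markers in the members' levels was not tested.

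In the same comparison of d3ko with d3con, 4 of 6 pluripotency markers were higher (Sox2, Zfp42, Klf4 and Esrrb) and 2 of 6 endoderm markers were lower (Sox17 and Hhex). Of all genes 4.75% were higher and 3.51% lower. Of the other lists, 1 of 6 primitive streak markers was lower (Gsc), 1 of 3 tested neural markers was higher (Pax6), and 0 of 3 tested extraembryonic endoderm markers were called. The proportion of cells of each state may therefore differ between the sorted groups, and its part in the differences of Wnt11, Fzd5 and Fzd8 was not tested.

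The rest of the pathway was counted by lists, to be read beside the shares of all genes called. These were 20.6% higher and 14.6% lower in d3con against d0con, and 11.6% higher and 5.72% lower in d3ko against d0ko. In d3ko against d3con they were 4.75% higher and 3.51% lower. Whether a list differed from these shares was not tested. Of the secreted Wnt antagonists, which bind ligands or co-receptors outside the cell, 5 of 9 tested rose and 1 fell in d3con against d0con, 4 rose and 1 fell in d3ko against d0ko, and 4 were lower and 1 higher in d3ko against d3con. The higher one was Notum, an enzyme that removes the lipid from Wnt ligands, whose ranges overlapped (0.14 to 0.72 TPM in d3con and 0.56 to 6.15 TPM in d3ko). Dkk1, which blocks Lrp5 and Lrp6, was at 385, 44.5 and 313 TPM in d3con and 14.4, 9.06 and 2.84 TPM in d3ko (log2 fold change -4.85, SE 0.84, adjusted p = 0.0131). Sfrp5, a secreted protein with a Frizzled-like binding domain, was at 188, 40.2 and 175 TPM in d3con and 5.05, 9.5 and 1.75 TPM in d3ko (-4.67, SE 0.74, adjusted p = 0.0107). Both were lowest in library 2 of d3con. Frzb, of the same kind, was at 44.1, 38.6 and 57.6 TPM in d3con and 0.75, 13.5 and 2.07 TPM in d3ko (-3.13, SE 0.81, adjusted p = 0.0407). Cer1, a secreted protein that binds Nodal and BMP ligands, was at 544 to 548 TPM in d3con and listed at 0 in both d0con libraries. In d3ko it was at 1.22, 56.4 and 1.87 TPM, and its difference from d3con did not pass the test. The median log2 fold change of the antagonists in d3ko against d3con was -2.83, and 0.02 over all genes.

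Of the 5 other Frizzled genes only Fzd6 was called between the day 3 genotypes. It was at 11.4, 11.8 and 13.5 TPM in d3con and 3.74, 3.91 and 3.32 TPM in d3ko (log2 fold change -1.74, SE 0.22, adjusted p = 0.00726). In control cells Fzd6 (2.16, SE 0.26, adjusted p = 0.000410) and Fzd1 (3.46, SE 0.99, adjusted p = 0.0167) rose from day 0 and Fzd9 fell (-2.59, SE 0.49, adjusted p = 0.00265). In knockout cells Fzd3 (1.35, SE 0.40, adjusted p = 0.0314) and Fzd4 (2.75, SE 0.78, adjusted p = 0.0273) rose. Of the other Wnt ligands 7 were tested. In control cells 2 rose and 2 fell, in knockout cells 2 rose and 1 fell, and none was called between the day 3 genotypes.

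Of the genes for Wnt secretion and co-receptors, 4 of 8 rose in control cells and 3 of 8 in knockout cells, and 0 of 8 differed between the day 3 genotypes. Wls, which carries Wnt ligands to the cell surface, had the largest rise of these in both genotypes (log2 fold change 4.99 and 3.79, adjusted p = 0.000416 and 0.00239). Of the R-spondins, Lgr receptors and ligases that remove Frizzled from the surface, 3 of 7 rose and 1 fell in control cells and 2 rose in knockout cells. The rises in knockout cells were of the ligand Rspo3 and of the ligase Rnf43 (log2 fold change 3.24, SE 0.69, adjusted p = 0.00947). Again none of the 7 was called between the day 3 genotypes.

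Within the cell, 2 of 13 genes of the beta-catenin core rose in control cells, 1 fell in knockout cells and 1 differed between the day 3 genotypes. The last was Tcf7l2, a Tcf/Lef factor, at 82.8, 44.1 and 103 TPM in d3con and 7.73, 14.1 and 5.08 TPM in d3ko (log2 fold change -3.11, SE 0.42, adjusted p = 0.00907). Of 8 tested beta-catenin target genes, T, Sp5 and Nkd1 rose in both genotypes, Cdx1 and Ccnd1 fell in control cells, and 1, the posterior factor gene Cdx1, differed between them at day 3. Cdx1 was at 0.2, 1.15 and 0.18 TPM in d3con and 15.4, 3.68 and 48.6 TPM in d3ko (5.49, SE 1.06, adjusted p = 0.0168). Of the 10 planar cell polarity genes, 3 rose in control cells (Prickle2, Celsr1 and Vangl2), 2 in knockout cells (Celsr1 and Vangl2), and none differed between the day 3 genotypes.

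**Figure D4:**
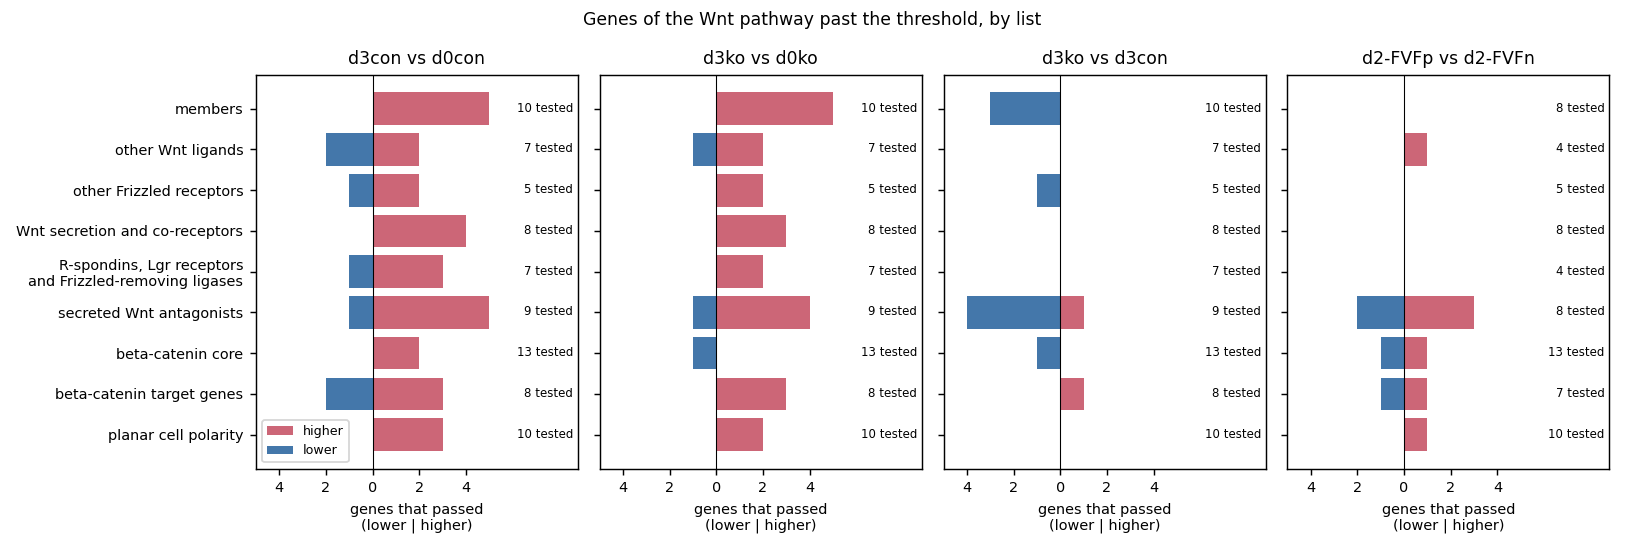
Number of genes past the threshold in each list of the Wnt pathway, lower to the left and higher to the right, for 4 comparisons, with the number tested at the right edge of each panel. In d3ko against d3con the secreted antagonists have 4 lower and 1 higher of 9, and the members 3 lower of 10. Of all genes 3.51% were lower and 4.75% higher there.

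The comparison of d2-FVFp with d2-FVFn asks whether induced Foxa2 alone, in cells kept as stem cells, changes these genes. Of the 10 members, 8 passed the filter on low counts and none was called by edgeR, where 8.43% of the 12943 tested genes were called, with 6.96% higher and 1.47% lower. Fzd7 alone of the 8 had an unadjusted p under 0.05, as did 33.4% of all genes tested. DESeq2 called none.

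Fzd7 was at 16.6 and 18.7 TPM in d2-FVFn and 10.8 and 13.5 TPM in d2-FVFp, without overlap (log2 fold change -0.58, SE 0.17, adjusted p = 0.0592). Fzd8 was at 1.24 and 1.8 TPM in d2-FVFn and 2.41 and 3.07 TPM in d2-FVFp (0.79, SE 0.35, adjusted p = 0.165), below the 21.8 to 27.5 TPM of d3con. Fzd10 was at 0.47 and 0.61 TPM against 1.17 and 1.03 TPM (0.97, SE 0.45, adjusted p = 0.181). Ranges that do not overlap are frequent with 2 libraries a group, and were found in the higher direction for 35.1% and in the lower for 27.4% of all genes tested.

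Wnt11 did not reach the filter, at 0.44 and 0.21 TPM in d2-FVFn and 0.21 and 0.26 TPM in d2-FVFp, and neither did Wnt8a, at 0.93 and 0.77 TPM against 0.99 and 1.83 TPM. Fzd5 was at 3.52 and 2.78 TPM against 4.62 and 3.01 TPM, with ranges that overlapped (log2 fold change 0.23, SE 0.27, adjusted p = 0.584). Of the members that were lower in d3ko, Fzd5 and Fzd8 were thus not called in the induced cells and Wnt11 was not tested. The levels of Fzd2, at 5.45 and 8.35 TPM against 7.42 and 10.8 TPM, Wnt3, at 0.41 and 2.31 TPM against 1.29 and 2.45 TPM, Wnt5a, at 0.96 and 0.28 TPM against 1.8 and 0.9 TPM, overlapped, and those of Wnt5b, at 1.82 and 2.4 TPM against 3.26 and 3.91 TPM, did not. None of these passed the test.

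Other pathway genes were called in this comparison, in which 6.96% of all genes were higher and 1.47% lower. Of the antagonists 3 of 8 tested rose and 2 fell. Wif1, which binds Wnt ligands, was at 0.1 and 0.3 TPM in d2-FVFn and 2.53 and 3.89 TPM in d2-FVFp (log2 fold change 3.86, SE 0.59, adjusted p = 0.00773). Dkk3 rose from 1 and 1.43 TPM to 7.23 and 13.2 TPM (3.02, SE 0.37, adjusted p = 0.00371). Of the beta-catenin core Tcf7l2 was higher, at 6.13 and 8.06 TPM against 19.4 and 26.8 TPM (1.68, SE 0.22, adjusted p = 0.00482), and Lef1 was lower, at 29.7 and 28.1 TPM against 10.03 and 5.56 TPM (-1.93, SE 0.26, adjusted p = 0.00511). Tcf7l2 was thus lower in d3ko than in d3con and higher in d2-FVFp than in d2-FVFn, and a part of Foxa2 in this was not tested. Dkk1, Sfrp5 and Frzb, named above as lower in d3ko, were at most at 0.31, 1.37 and 0.28 TPM in the doxycycline libraries. Of the 4 other Wnt ligands tested, Wnt9a was higher (2.17, SE 0.42, adjusted p = 0.0160).

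Members were also set against each other over the 10 day 0 and day 3 libraries, as a description, since these libraries share the day, the genotype and the clone. Wnt3, Fzd2 and Fzd7 had log2 CPM that correlated with Pearson's r of 0.94 to 0.97 with each other. Wnt11 and Fzd8 correlated at 0.95, and Wnt5b and Wnt8a at 0.83. Fzd5 was opposite to Wnt5b (r of -0.71) and to Wnt8a (-0.67), and Fzd10 was opposite to Fzd5 (-0.67) and Fzd8 (-0.65).

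Of all tested genes, those most like a member over the same 10 libraries were Pdcd4 (r of 0.994), Npc1 and Emid1 for Wnt11, Gdf2 (0.99), Rbp3 and Shisa2 for Fzd8, and Foxa3 (0.968), Rab4a and Ccdc12 for Fzd5. Shisa2, which encodes a protein that retains Frizzled receptors within the cell, had a mean of 2.83 TPM in d0con, 60.1 TPM in d3con and 3.57 TPM in d3ko. Foxa3, a relative of Foxa2, had means of 6.27, 47.0 and 3.02 TPM in the same groups. Gdf2 was low throughout, at 0.777 TPM in d3con. Among the most like genes were Tceanc2 (0.992) and Nsmf for Wnt3, Dyrk2 (0.994), Trim56 and Gm13375 for Fzd2, and Hivep2 (0.989) and Gchfr for Fzd7. For Wnt5a they were Nkd2 (0.983), Zcchc24 and Bbs10, for Wnt5b Add3 (0.964), Mocs1 and Lhpp, for Wnt8a Nfasc (0.981), 4930413G21Rik and Sdc1, and for Fzd10 Gngt2 (0.934), Slc36a1 and Asic2.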

How the data were processed

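Per the labels and the study's methods, the authors made libraries with SMART-Seq v4 and MicroPlex v2 kits, aligned reads to mm10 with STAR and quantified each library with RSEM. Tool versions are not given in the sources used here. The deposited expected counts are estimated reads per gene. The deposited TPM values were scaled by the authors for gene length and library total. The deposited lengths and effective lengths (other) were used only to read the read length. Of the 140 member values, 25 were fractional (tolerance 0.001), so some reads were shared with other genes.

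Expected counts were rounded, genes with at least 1 CPM in 2 libraries were kept, and TMM-scaled counts were tested with edgeR 4.0.16 (R 4.3.3, quasi-likelihood F test, Benjamini-Hochberg adjustment over all genes). The 10 day 0 and day 3 libraries (13899 genes) and the 4 doxycycline libraries (12943 genes) were fitted apart. The SE was obtained from the fold change and F. The fit was tested on simulated data. Levels are TPM, log2 CPM used a prior count of 2, and correlations are Pearson's r.

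Alternatives were DESeq2 1.42.0, limma 3.58.1 on log2(TPM + 1), median-of-ratios scaling, other filters (none, or a mean count of at least 50), glmTreat, a replicate block, a clone term, the 2 groups alone, and fits with libraries summed or left out. Leaving out both day 3 libraries numbered 2 was chosen after seeing the data.

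The members and lists were chosen with earlier results of these data known. All members are named, plus up to 3 called genes of largest change per list, Wnt3a, Foxa2 and the 3 genes most correlated with each member, of which some are not reported here. T, Cer1, the called markers, and values of Shisa2, Foxa3 and Gdf2 were named after their values were seen. Positions and promoters are from RefSeq (GRCm38.p6, the assembly of mm10), with promoters for 6 of 10 members.

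Replicate numbers are shared between groups. In d3con and d3ko, deviations from the group mean correlated across genes at 0.54, 0.29 and -0.01 for numbers 1, 2 and 3, and those of other comparisons at -0.04 to 0.29, so the numbers were not taken to pair the samples.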

Additional observations from a re-analysis of the deposited data

Results flagged for a closer look

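For Fzd5 and Fzd10 the libraries of the genotypes lay on opposite sides of their day 0 libraries at day 3, although none of the 4 changes from day 0 passed the test within a genotype. How many of all genes share this pattern was not counted. Libraries of d3con all above both d0con libraries were found for 45.5% of all genes tested. For Fzd5 every d3con library (7.27 to 38.7 TPM) was above both d0con libraries (5.76 and 6.48 TPM), and every d3ko library (1.71 to 5.48 TPM) was below both d0ko libraries (5.77 and 6.58 TPM). The log2 interaction of -2.47 (SE 0.93, edgeR adjusted p = 0.3003) did not pass adjustment. For Fzd10 every d3con library (1.02 to 2.28 TPM) was below both d0con libraries (2.31 and 3.24 TPM), and every d3ko library (3.1 to 6.62 TPM) was above both d0ko libraries (1.61 and 2.36 TPM). Its log2 interaction was 2.04 (SE 0.71, edgeR adjusted p = 0.267). Without both day 3 libraries numbered 2, a fit chosen after seeing the data, both interactions were called (log2 -2.52 for Fzd5 and 2.63 for Fzd10). In that fit the interaction was called for 11.9% of all genes.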

How the results depend on the processing

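Of the member values under the alternatives, 819 kept their direction and side of the threshold, 33 passed it newly, 32 no longer passed and 28 changed sign. In d3ko against d0ko, glmTreat called 1 member in place of 5, and 3.48% of all genes. In d3ko against d3con, 0 in place of 3 were called with day 3 libraries 1 and 3 summed and with both 75-base libraries left out, and 6 without both day 3 libraries numbered 2. Of all genes, these fits called 0.00732%, 0.00734% and 18.8%. For the interaction DESeq2 called 2, limma 1, and the fit without both libraries numbered 2 called 5, in place of 0. Of all genes, they called 4.07%, 0.0578% and 11.9% for the interaction. The fits of d3ko against d3con that called 0 and the fit that called 6 all had fewer libraries than the main fit. The part of this in the counts was not tested.

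With 1 library left out, members called ranged from 2 to 5 in d3ko against d3con, where 0.579% to 16.3% of all genes were called. In the other comparisons some of these fits leave 1 library in a group, which is assumed to vary like the other groups. Counts of calls are therefore not given there. In d3con against d0con and in d3ko against d0ko the calls also moved with the library left out, for the members and for all genes.

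The replicate block, with numbers not shown to pair samples, called 5, 5, 3, 0 and 0 members in d3con against d0con, d3ko against d0ko, d3ko against d3con, d0ko against d0con and the interaction. Of all genes, it called 36%, 17.7%, 5.87%, 0% and 0% in the same order. In d2-FVFp against d2-FVFn it called 1 in place of 0 (Wnt5a, log2 fold change 1.25, edgeR adjusted p = 0.0295), where 11.6% of all genes were called. Under the block Wnt5b and Fzd5 turned to 0.04 and 0.02 in d0ko against d0con, and the Fzd7 interaction to -0.04.

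Other changes of sign concerned values not past the threshold. Fzd5 in d0ko against d0con was 0.01 with limma. The Fzd7 interaction was -0.08 with limma, -0.01 without the 75-base libraries and -0.23 without those numbered 2, a fit in which Wnt5b was -0.91 and Wnt8a -1.86 in d3con against d0con. Over the fits without 1 library, log2 fold changes that changed sign were, in d3con against d0con, Wnt5b (-0.91 to 1.89) and Wnt8a (-1.86 to 2.74). In d3ko against d3con they were Wnt3 (-0.98 to 0.2), Wnt8a (-1.1 to 4.65) and Fzd7 (-0.33 to 0.21). In d0ko against d0con they were Wnt5b (-0.64 to 0.28), Wnt8a (-0.19 to 0.05) and Fzd5 (-0.11 to 0.05). For the interaction they were Wnt5a (-0.26 to 1.24), Wnt8a (-1.03 to 4.71) and Fzd7 (-0.14 to 0.39). In d2-FVFp against d2-FVFn they were Wnt3 (-0.32 to 2.15) and Fzd5 (-0.09 to 0.53). The cause was not tested. Low counts of Wnt8a and Wnt11 kept them out of the doxycycline test.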
